A study of Mus musculus with 3 samples.

Results

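The 80 genes described here encode the nuclear subunits of the mitochondrial respiratory chain and ATP synthase. They were chosen by symbol from the 27998 genes of the deposited matrices, as the numbered Ndufa, Ndufb, Ndufc, Ndufs and Ndufv genes with Ndufab1 (37 genes of complex I), Sdha to Sdhd (4 of complex II), the Uqcr genes with Cyc1 (9 of complex III), the nuclear Cox subunits (15 of complex IV) and the Atp5 subunits (15 of complex V). Their transcripts were counted in single bone marrow cells of C57BL/6 mice that were sorted for CD133, a surface antigen encoded by Prom1. There were 3 libraries: young and control, both labelled 3 months, and old, labelled 27 months, although the series' design text gives 18.5 months for the old mice. The labels do not say what sets the control library apart from the young one. The design text gives 3 mice per age, and each library is a single sample in which the mice cannot be told apart.

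The respiratory chain passes electrons from NADH (complex I) and succinate (complex II) through complex III and cytochrome c to oxygen at complex IV, and complex V uses the resulting proton gradient to make ATP. Most subunits are encoded in the nucleus and a few by mitochondrial DNA, so both genomes and a set of assembly factors supply each of the complexes except complex II, which is wholly nuclear. In bone marrow, neutrophil precursors make the granule proteins in order. Mpo, which encodes the peroxidase of primary granules, is expressed early and declines as the cells mature, while transcripts such as Retnlg come late.

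The young, control and old libraries held 8362, 10869 and 10597 cells, with 81434722, 108985799 and 138030352 unique molecular identifiers (UMIs) in all. After filtering, 6697, 9701 and 9601 cells were used. Cells with markers of other blood lineages were set aside, and these made up 9.23% of the filtered young cells but 0.808% of the control and 0.826% of the old ones. Neutrophil precursor markers summed to between 107227 and 130485 counts per 1000000 UMIs (CPM) in the 3 libraries. The endothelial markers Cdh5, Pecam1, Kdr, Tek, Emcn and Vwf together reached only 1.72 to 3.11 CPM, so the cells are described by their neutrophil precursor genes and are not called endothelial. The libraries shared between 120 and 161 cell barcodes per pair. Cells were placed in 5 bands by their own Mpo level, which were under 3, 3 to under 10, 10 to under 30, 30 to under 100, and 100 or more Mpo UMIs per 10000 UMIs. The highest band held 289 control, 549 young and 93 old cells.

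The 80 genes together took up 2.46% of all UMIs in the control library, 2.37% in young and 2.33% in old. These shares have exact counting intervals of less than 0.01 percentage points on either side, which cover counting error only, since there was no replicate of any library. Complex I contributed 8690, 8433 and 8084 CPM in control, young and old, and complex IV contributed 6535, 6304 and 6419 CPM. Complex V stood at 6217, 6099 and 5835 CPM, complex III at 2798, 2542 and 2596 CPM, and complex II at 317, 331 and 344 CPM. In total 77 of the 80 genes reached 10 CPM in at least 1 library. The exceptions were Cox4i2, Cox6a2 and Cox7a1, which are isoforms known mainly from lung or striated muscle.

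To follow subunit transcripts along neutrophil differentiation, the bands were compared within each library. The summed share rose with Mpo in all 3 libraries. In the control library the 80 genes made up 2.07%, 2.17%, 2.74%, 3.35% and 3.40% of UMIs from the lowest to the highest band. In the young library the shares were 1.98%, 2.05%, 2.51%, 3.12% and 3.47%, and in the old library 1.92%, 2.11%, 2.84%, 3.41% and 3.50%. The highest band therefore lay above the lowest in every library, without overlap between the bands. All 77 genes that reached 10 CPM were higher in the highest than in the lowest band in each library on this scale, as were 70.8%, 75.1% and 71.3% of all genes at that level in control, young and old. The level rose at every step from the lowest band to the next to highest for 74, 72 and 76 of them in control, young and old, which compares with 50.2%, 49.5% and 54.8% of all 5696 such genes. Complex III showed the steepest summed rise, 1.98-fold in control, 2.12-fold in young and 2.19-fold in old, and complex IV the shallowest, at 1.47-fold, 1.61-fold and 1.67-fold.

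How large this rise appears depends on what the subunits are measured against. A set of 15 granule protein and maturation genes took up 46.6%, 47.1% and 43.3% of all UMIs in the lowest band of control, young and old, and 13.6%, 13.1% and 12.9% in the highest band. Counted against the UMIs of all other genes, the 80 genes made up 3.88% of the lowest and 3.94% of the highest band in control, and 3.74% and 3.99% in young. The same shares were 3.39% and 4.02% in old. Counted per cell, the 80 genes gave 188, 188 and 222 UMIs in the lowest band of control, young and old and 371, 402 and 444 in the highest. Depth moved as well, since the median cell held 8836 to 11610 UMIs in the lowest bands and 11527 to 14176 in the highest. A shift in the subunits and a shift in the granule transcripts cannot be told apart on the scale of all UMIs.

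**Figure D1:**
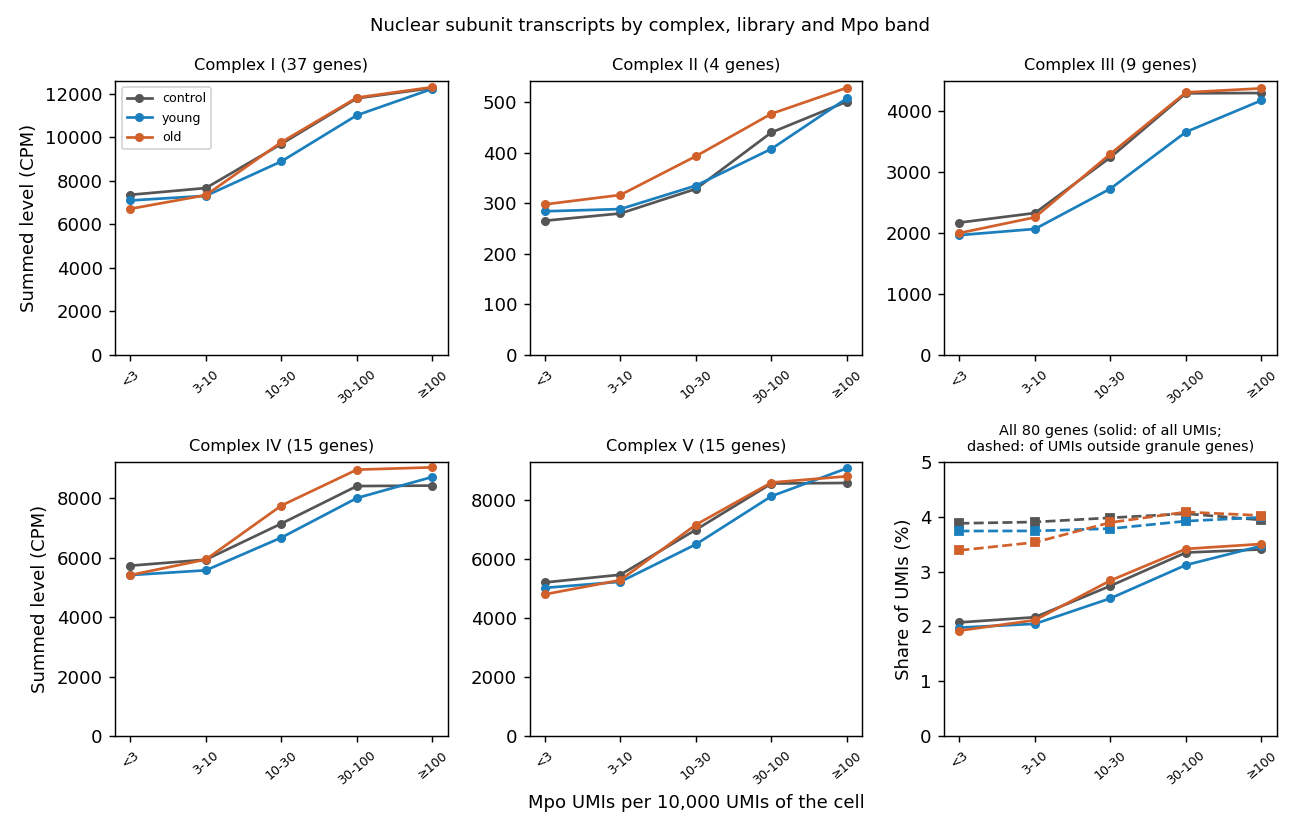
Summed CPM of the nuclear subunit genes of complexes I to V (y axes) in 5 bands of Mpo UMIs per 10000 UMIs (x axes), with 1 line per library, and in the last panel the share of the 80 genes among all UMIs (solid) and among UMIs outside the granule genes (dashed). In the last panel the solid lines climb from about 2% to 3.40% to 3.50%, while the dashed lines end between 3.94% and 4.02%.

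The bands were then tested gene by gene with edgeR on the sums of each library and band, with the library as a block and with trimmed mean of M values (TMM) scaling, which centres the comparison on the typical gene. Of 10980 genes tested, 33.5% were higher and 35.6% were lower in the highest than in the lowest Mpo band at an adjusted p under 0.05. Among the 79 subunit genes tested (Cox4i2 was too low), 34 were higher, 21 were lower and 24 were not called. Their median log2 difference was 0.10, beside −0.04 for all genes. With library totals in place of TMM, 60.9% of all genes were higher and 14.1% lower. Of the subunit genes 76 were higher, and only Cox6a2 was lower, a sparse gene counted mostly in the young library. The medians then stood at 0.83 for the subunits and 0.69 for all genes. Of the 21 genes that were lower with TMM, 19 were higher with library totals, so the direction of these genes holds only relative to the typical gene. The exceptions were Ndufb7, which was not called, and Cox6a2. The 34 genes that were higher with TMM were also higher with library totals.

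On the TMM scale the complexes did not move as units. In complex I, 18 of 37 genes were higher and 12 were lower, with a median log2 difference of 0.16. Of its 7 core subunits, which together carry the redox centres, 4 were higher and 1 was lower, by −0.14. The lower gene missed the threshold without the control library (−0.10) and without the old one (−0.12). Ndufv1, which binds NADH, was higher by 0.25 ± 0.07 (log2, SE, adjusted p = 0.0033), while Ndufs1 was at 0.16 ± 0.09 and was not called. The largest difference in complex I belonged to the accessory subunit Ndufa12. It stood at 107, 93.5 and 94.8 CPM in the lowest band of control, young and old and at 387, 328 and 376 CPM in the highest. The bands did not overlap, and the log2 difference was 1.15 ± 0.06 (adjusted p = 1.16e-11). Ndufab1, the mitochondrial acyl carrier protein, rose by 0.84 ± 0.07. At the other end was Ndufb7, an accessory subunit, whose share of UMIs was similar in the lowest and the highest band. In the next to highest band it was at 533, 549 and 530 CPM in control, young and old. Its levels were 492, 479 and 450 CPM in the lowest band and 500, 542 and 509 CPM in the highest, which is a log2 difference of −0.61 ± 0.06 on the TMM scale (adjusted p = 2.27e-08) and 0.13, not called, with library totals. Ndufs4, Ndufv3 and Ndufb11 were also lower on the TMM scale, by −0.54, −0.48 and −0.33. Ndufa4, which is counted with complex I by its name but is known as a partner of complex IV, was higher by 0.45 ± 0.09.

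In complex II the anchor subunits Sdhc and Sdhd rose by 0.32 ± 0.07 and 0.66 ± 0.09, and the flavoprotein Sdha rose by 0.24 ± 0.07 (0.16 and not called without the young library). The iron-sulfur subunit Sdhb was lower by −0.48 ± 0.06 (adjusted p = 1.17e-06) and on library totals was higher by 0.25. In complex III, 6 of 9 genes rose and the other 3 were not called, and the median was 0.32. Uqcr11, a small accessory subunit, led with 0.98 ± 0.07 (adjusted p = 6.64e-10). Its levels in control, young and old were 272, 241 and 202 CPM in the lowest band and 809, 747 and 779 CPM in the highest. Cyc1, which encodes cytochrome c1, rose by 0.36 ± 0.06, whereas the Rieske protein gene Uqcrfs1 was at 0.10 ± 0.08 and was not called, except without the old library (0.22).

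On the TMM scale, complex IV was the only complex in which more genes were lower than higher. Of 14 genes tested, 2 rose and 5 were lower, with a median of −0.06. Among all genes tested 33.5% were higher and 35.6% lower, with a median of −0.04. The count of lower genes in complex IV was thus near the share of all genes, and fewer of its genes rose. Cox7b rose by 0.50 ± 0.07 and Cox6b2 by 0.28 ± 0.08. The lower genes were Cox4i1 (−0.30 ± 0.06), Cox6a1 (−0.37 ± 0.07), Cox7a2 (−0.22 ± 0.07), Cox5b (−0.19 ± 0.06) and the sparse Cox6a2. Of these, Cox4i1, Cox6a1, Cox7a2 and Cox5b were higher on library totals, by 0.43, 0.37, 0.51 and 0.54. Cox7a2 missed the threshold without the control library (−0.14) and without the young one (−0.23), and Cox5b missed it without control (−0.16) and without old (−0.14). Cox5a was at 0.14 ± 0.07 and was not called.

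In complex V the catalytic head showed little movement on the TMM scale. Among its 5 genes only Atp5a1, the alpha subunit, rose (0.39 ± 0.07), while Atp5b (beta) and Atp5c1 (gamma) were at 0.14 ± 0.06 and −0.03 ± 0.07. The peripheral stalk genes Atp5f1, Atp5h and Atp5j were lower by −0.50, −0.45 and −0.36, and Atp5o, which also belongs to the stalk, was at −0.13 ± 0.06 and was not called. On library totals Atp5a1, Atp5b and Atp5c1 were higher by 1.12, 0.87 and 0.70, and Atp5f1, Atp5h and Atp5j were higher by 0.23, 0.28 and 0.37. The membrane ring subunit genes Atp5g1, Atp5g2 and Atp5g3 all rose.

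**Figure D2:**
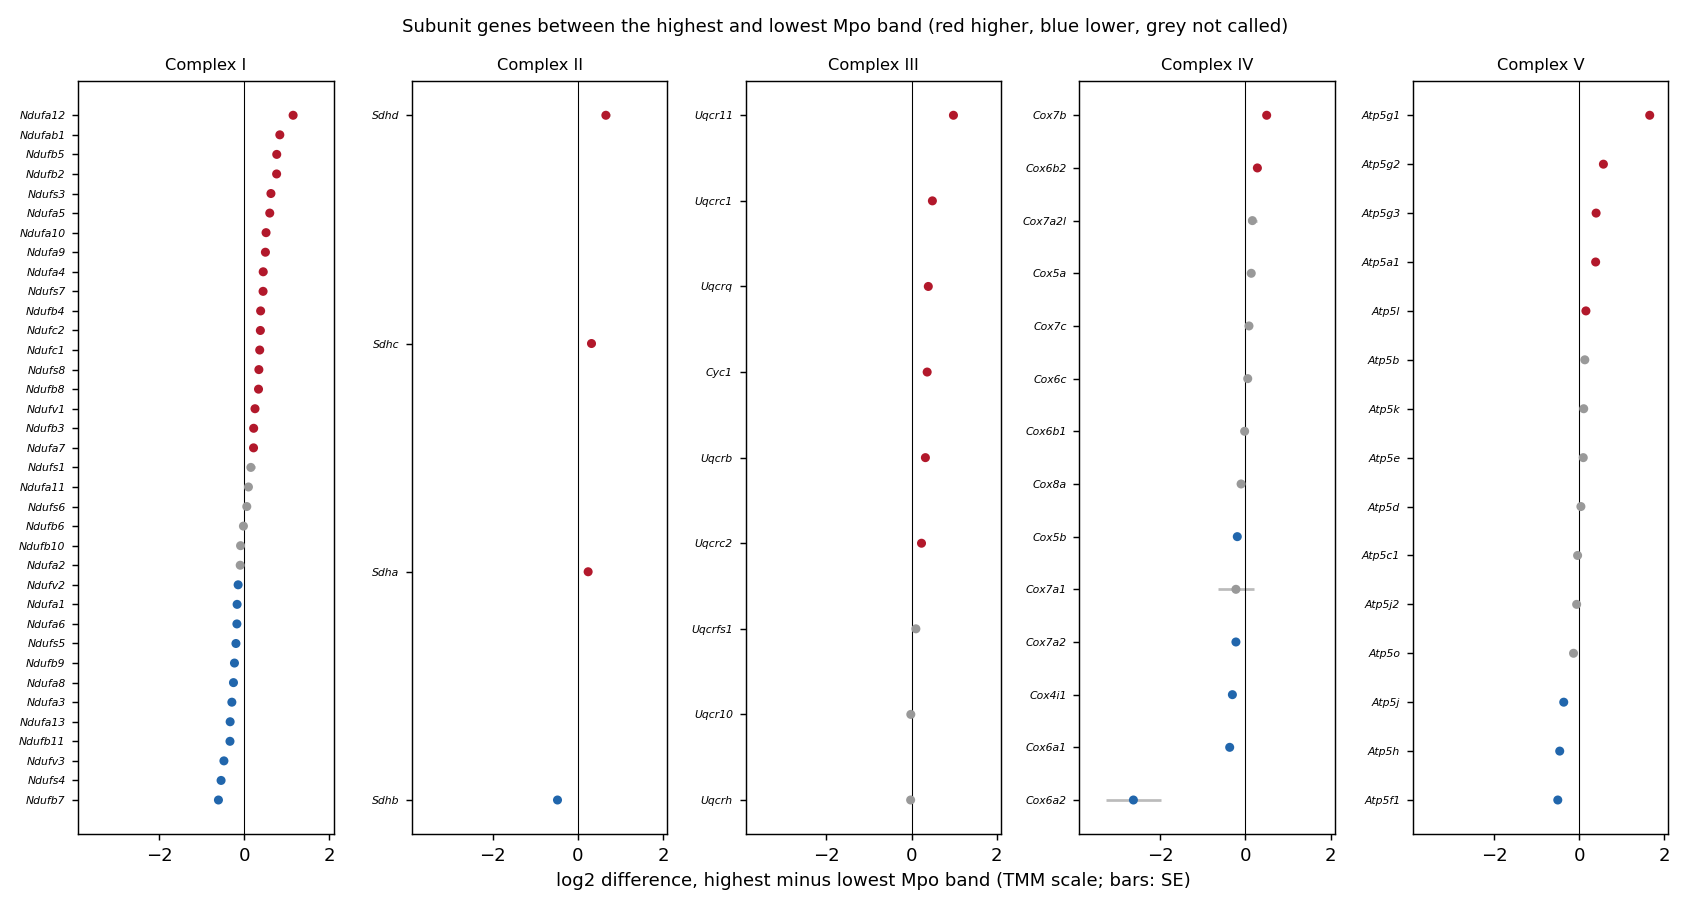
Log2 difference between the highest and the lowest Mpo band on the TMM scale (x axis) for subunit genes tested, 1 panel per complex, with bars for the SE and colours for genes called higher (red), lower (blue) or not called (grey) in edgeR. Atp5g1 at 1.66 and Ndufa12 at 1.15 lie farthest to the right. The sparse Cox6a2, counted mostly in the young library, lies farthest to the left at −2.63.

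Subunit c of ATP synthase is encoded by Atp5g1, Atp5g2 and Atp5g3, which differ in their import sequences but yield the same mature protein. Shares within such a family do not depend on the scaling. In the control library Atp5g1 took up 41.2% of the family's UMIs in the lowest band and 42.0%, 51.3%, 59.4% and 59.4% in the following ones. In the young library its shares were 34.1%, 34.5%, 42.1%, 49.8% and 53.0%, and in the old library 34.8%, 38.2%, 46.3%, 54.7% and 56.3%. The lowest and the highest band did not overlap, and the widest exact 95% interval was 54.1% to 58.5%, for the highest band of the old library. Atp5g1 was the most frequent of the 3 genes in the highest band of each library, whereas in the lowest band Atp5g2 led in young and old, with 40.2% in both. Atp5g1 itself stood at 223, 177 and 148 CPM in the lowest band of control, young and old and at 1016, 913 and 913 CPM in the highest, and its log2 difference of 1.66 ± 0.08 (adjusted p = 1.84e-12) was the highest of the 79 genes. Atp5g2 and Atp5g3 rose by 0.57 ± 0.07 and 0.40 ± 0.06. The counts come from the 3′ ends of transcripts and are not scaled to length, and reads that match more than 1 of these genes or their pseudogenes could be lost.

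**Figure D3:**
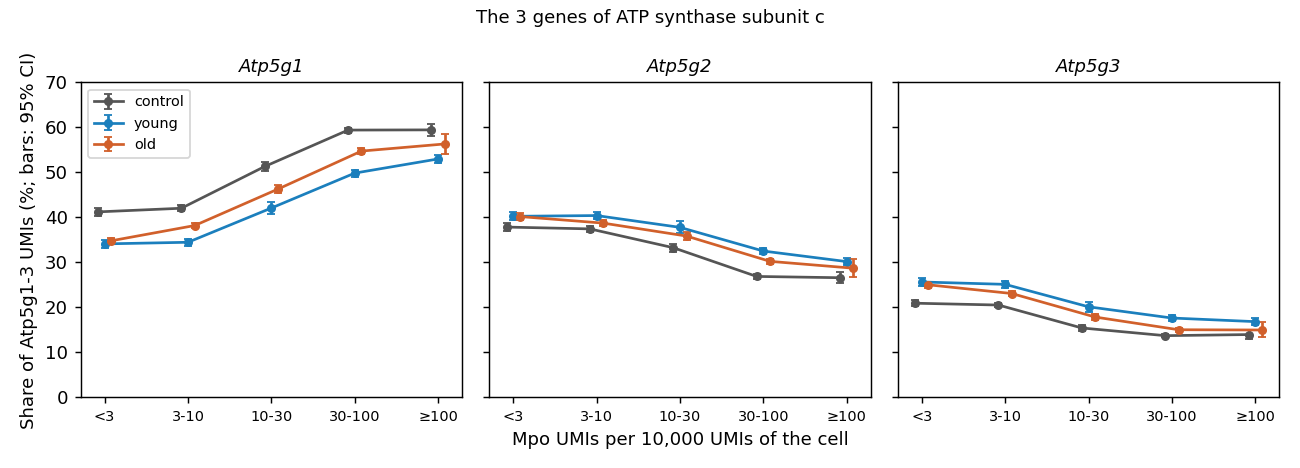
Share of the Atp5g1, Atp5g2 and Atp5g3 UMIs taken by each gene (y axis, %) across the 5 Mpo bands (x axis), with 1 line per library and exact 95% binomial intervals as bars. Atp5g1 climbs from between 34.1% and 41.2% to between 53.0% and 59.4%, and the other genes decline.

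The promoters are shown because members of the same complex, and even genes for the same protein, differed in the band comparison. A window from 250 bases before to 50 bases after the start was given by RefSeq (GRCm38.p6) for 65 of the 80 genes, and 5 of these have 2 windows. Both strands were searched for the letters GCGCANGCG (NRF1), CCGGAAG (GABP and other ETS factors), AANATGGCG (YY1) and TNAAGGTCA (ERR). The NRF1 letters were present for 20 of the 65 genes (30.8%) and in 6.25% of all 32851 windows. The corresponding shares were 24.6% and 8.86% for the ETS letters, 15.4% and 2.38% for YY1, and 4.62% and 1.28% for ERR. Any of them was found for 38 of the 65 genes (58.5%) and in 16.6% of all windows. A subunit gene with 2 windows was counted when either held the letters, whereas the shares over all are per window. Of the 38 genes with a motif, 15 were higher and 10 were lower between the bands, and of the 27 without one 13 were higher and 7 were lower. By complex, a motif was found for 18 of 33 genes of complex I, 3 of 3 of complex II, 3 of 5 of complex III, 3 of 11 of complex IV and 11 of 13 of complex V. A match is a description of letters and not of binding. The stretches before the start of Atp5g1 (chr11:96075671-96075820, minus strand), Atp5g3 (chr2:73911327-73911476, minus strand), Sdhd (chr9:50603850-50603999, minus strand) and Uqcr11 (chr10:80406831-80406980, minus strand) are given below, 5′ to 3′ and up to the first exon base annotated in RefSeq or GENCODE M21, with motif letters in capitals. Atp5g1, the member that differed most, held none of these letters in its whole window. In the stretches shown, Atp5g3 held the ERR letters, Sdhd held the NRF1 and the ETS letters, and Uqcr11 held the ETS letters. Elsewhere in their windows, Atp5g3 and Uqcr11 also held the NRF1 letters and Sdhd the ERR letters.
Atp5g1: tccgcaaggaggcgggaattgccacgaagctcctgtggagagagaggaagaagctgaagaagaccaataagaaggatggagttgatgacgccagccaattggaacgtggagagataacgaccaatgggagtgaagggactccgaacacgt
Atp5g3: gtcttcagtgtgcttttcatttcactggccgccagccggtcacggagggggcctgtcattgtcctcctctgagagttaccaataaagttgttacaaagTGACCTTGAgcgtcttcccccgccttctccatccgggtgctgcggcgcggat
Sdhd: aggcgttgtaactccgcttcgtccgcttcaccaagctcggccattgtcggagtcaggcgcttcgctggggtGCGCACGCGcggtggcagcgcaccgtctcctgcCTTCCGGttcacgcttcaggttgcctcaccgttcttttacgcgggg
Uqcr11: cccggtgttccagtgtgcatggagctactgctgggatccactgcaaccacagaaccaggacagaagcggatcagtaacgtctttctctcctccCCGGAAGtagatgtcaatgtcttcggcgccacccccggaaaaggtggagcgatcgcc

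Other genes of the pathway were compared on the same scale, in lists chosen by function. Of 43 assembly factors tested, 27 were higher and 6 lower in the highest Mpo band, beside 33.5% and 35.6% of all genes. Their median log2 difference was 0.49, beside 0.10 for the subunits and −0.04 for all genes. With library totals 42 were higher and none was lower, beside 60.9% and 14.1% of all genes, and the 42 included 5 of the 6. Among the 27, Foxred1, Bcs1l, Sco1, Cox11, Cox18 and Coa5 missed the threshold without 1 or another library. For complex I, 9 of 13 factors rose and 2 were lower, with a median of 1.15. Ndufaf4 rose by 3.00 ± 0.15, from 5.31, 2.75 and 2.71 CPM in the lowest band of control, young and old to 76.9, 28.0 and 39.9 CPM. Ecsit, which acts in complex I assembly, rose by 2.49 ± 0.18, and Ndufaf3 was lower by −0.33 ± 0.07. For complex II 3 of 4 factors rose and Sdhaf2 was lower (−0.42 ± 0.10), for complex III 4 of 6, for complex IV 8 of 17 (with 3 lower, among them Cox17 and Pet100) and for complex V 3 of 3. Many of these genes are sparse, and the complex I factors summed to only 158 to 179 CPM per library.

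Of 8 genes listed as carriers around ATP synthase, 5 rose and 3 were not called, where 33.5% of all genes were higher and 35.6% lower. The 5 included Cycs and Atpif1, and Atpif1 is no carrier. Slc25a4 and Slc25a5, which encode adenine nucleotide translocases, rose by 3.39 ± 0.29 and 1.07 ± 0.07. Slc25a4 was sparse, at 7.49, 10.7 and 8.91 CPM in control, young and old. Cycs, which encodes cytochrome c, rose by 0.90 ± 0.07. The porin genes Vdac1, Vdac2 and Vdac3 were between −0.09 and 0.04 and were not called. All 8 were higher with library totals, as were 60.9% of all genes, and the porin genes were so by 0.78, 0.65 and 0.65. Of 13 protein genes of mitochondrial DNA 11 rose and 2 were not called, with a median of 1.30, so their median lay above that of the nuclear subunits. All 13 were higher with library totals, beside 60.9% of all genes. Of 11 regulators tested 5 rose and 5 were lower. The nuclear factors Nrf1 (−0.74 ± 0.11), Gabpa (−0.35 ± 0.15), Gabpb1 (−0.91 ± 0.09), Yy1 (−0.29 ± 0.09) and Esrra (−0.73 ± 0.18) were lower. Without the control library Gabpa (−0.12) and Yy1 (−0.19) were not called, nor was Gabpa without old (−0.28). With library totals Gabpa (0.38) and Yy1 (0.44) were higher, and Nrf1 (−0.0017), Gabpb1 (−0.18) and Esrra (0.00050) were not called. Tfam and Tfb2m, which act on mitochondrial DNA, rose by 0.86 ± 0.13 and 1.92 ± 0.16, and the mitochondrial RNA polymerase gene Polrmt rose by 1.57 ± 0.30. Polrmt was sparse, at 1.42, 1.38 and 0.74 CPM in control, young and old. Pprc1 and the very sparse Ppargc1b also rose, Tfb1m was not called, and Ppargc1a was at or near 0.

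**Figure D4:**
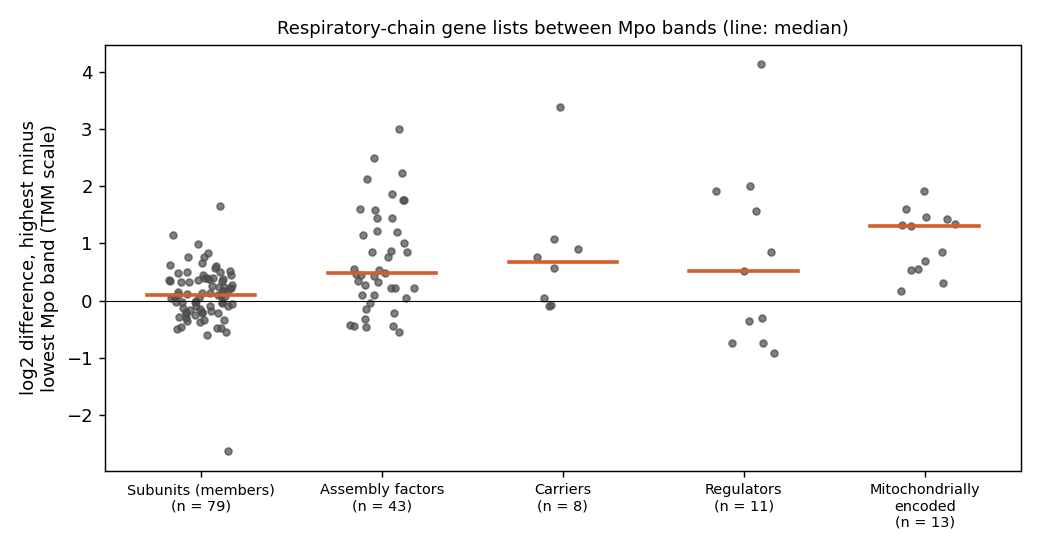
Log2 difference between the highest and the lowest Mpo band on the TMM scale (y axis) for the genes of 5 lists (x axis), with 1 point per gene and a line at the median. The medians are 0.10 for the subunits, 0.49 for assembly factors, 0.67 for carriers, 0.51 for regulators and 1.30 for mitochondrially encoded genes. The list of carriers also holds Atpif1, which is no carrier.

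The lowest Mpo band was divided further by Retnlg, a transcript of maturing neutrophils. Cells at or above 10 Retnlg UMIs per 10000 made up 7.09% of this band in control, 12.7% in young and 37.0% in old. The 80 genes took up 1.78%, 1.78% and 1.67% of the UMIs of these cells in control, young and old, and 2.09%, 2.0% and 2.03% in the remaining cells of the band. The log2 ratios of −0.23, −0.17 and −0.28 lay in one direction in the 3 libraries. Their size depended on the scale, with −0.14, −0.14 and −0.18 when granule genes were left out of the total and −0.93, −0.74 and −0.72 in UMIs per cell. The median ratio of the subunit genes was −0.26, −0.22 and −0.29, beside −0.23, −0.15 and −0.21 for all genes, and 66, 65 and 74 of 77 subunit genes were lower, which compares with 64.0%, 61.4% and 69.2% of all genes. Cox6b2, which was sparse in these cells, dropped further than the median, from 26.6 to 6.33 CPM in control, from 36.3 to 19.0 CPM in young and from 31.4 to 19.6 CPM in old. In old, Atp5g2 (−0.76) and Ndufa4 (−0.74) dropped further than Cox6b2 (−0.68). The Retnlg-high cells also held fewer UMIs, with medians of 4704, 5423 and 8986 against 9118, 9893 and 12989, and the part of depth in these ratios was not tested.

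The comparison of old with young mice asks whether subunit transcripts differ with age. There was 1 library per group and hence no test between libraries. Genes were described as past 1.5 times in CPM among those at 10 CPM or more in either library, with exact intervals for counting error. Between old and young, 4.99% of 5608 genes were past this limit upward and 10.6% downward, but none of the 77 subunit genes was past it in either direction. The median log2 ratio was −0.03 for the subunits and −0.09 for all genes, and 32 of the 77 were above 0, beside 39.2% of all genes. The ratios of the subunits ranged from −0.37 to 0.41. Between old and control, 5.35% of 5455 genes were past the limit upward and 8.73% downward, and of the subunits only Cox7a2l was past it, upward, with a median of −0.07 beside −0.08. Between control and young, both labelled 3 months, 2.26% of 5573 genes were past the limit upward and 3.86% downward and none of the subunits was, with a median of 0.02 beside −0.01. The ratios of old over young and of control over young share the young library, and those of old over control share libraries with both.

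The libraries also differed in how their cells fell into the bands. The 2 highest bands held 17.4% of the control, 21.8% of the young and 13.2% of the old cells, and these are the bands in which the subunits took up the largest share. Within bands, from the lowest to the highest, the median old over young ratio of the subunits was −0.03, 0.06, 0.19, 0.16 and 0.00, beside −0.06, −0.02, 0.04, 0.00 and −0.04 for all genes. The lowest band was not alike in its cells, since 37.0% of them in old and 12.7% in young were high in Retnlg. In its other cells the 80 genes took up 2.03% of UMIs in old and 2.0% in young. The part of this mix in the ratio of that band was not tested. At 10 to under 30 Mpo UMIs 69 of 77 subunit genes were higher in old than in young and at 30 to under 100 there were 65. In the same bands 59 and 52 of the 77 were higher in control than in young. Over all cells 32 were higher in old than in young, beside 39.2% of all genes, and no such share was taken within bands. Between old and control the band medians were −0.09, −0.02, 0.07, 0.04 and 0.02, and between control and young 0.05, 0.07, 0.10, 0.10 and −0.04. The direction of the overall old over young median thus did not hold in the bands from 3 to under 100 Mpo UMIs. In the highest band that median was 0.0025, with 40 of 77 subunit genes above 0. The highest of these band medians was 0.19 between old and young and 0.10 between control and young.

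Among the single genes, Cox7a2l stood apart. It encodes a relative of Cox7a2. Its level was 89.4 CPM in control (95% interval 87.5 to 91.3), 132 CPM in young (130 to 135) and 176 CPM in old (173 to 178). All libraries differed beyond counting error, with log2 ratios of 0.98 for old over control, 0.41 for old over young and −0.57 for control over young, so the libraries labelled 3 months also lay apart. Within bands the old over control ratio was 1.2, 1.15, 0.90, 0.70 and 0.75 and the old over young ratio 0.61, 0.55, 0.29, 0.36 and 0.35, so that the order of the 3 libraries was the same in each band. Of the UMIs of Cox7a1, Cox7a2 and Cox7a2l, the latter took up 10.6% in control, 16.6% in young and 20.2% in old. Across bands its share ranged from 9.60% to 15.7% in control, from 15.6% to 19.7% in young and from 16.8% to 22.4% in old. The gene lies at chr17:83501918-83517330 on the minus strand (GENCODE M21, GRCm38) and overlaps no other annotated gene.

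After Cox7a2l, the highest old over young ratios belonged to Uqcrfs1 (0.38), Ndufb9 (0.23), Uqcrq (0.22) and Atp5a1 (0.19), and all of these intervals lay above 0. Uqcrfs1, the Rieske iron-sulfur protein of complex III, was at 109 CPM in young, 116 CPM in control and 142 CPM in old. Its old over young ratio was 0.42, 0.45, 0.59, 0.51 and 0.15 from the lowest to the highest band. For Uqcrq the control library (393 CPM) was close to old (391 CPM), and young stood lower at 336 CPM. The lowest ratios belonged to Ndufs7 (−0.37), Ndufb3 (−0.33), Atp5g3 (−0.33), Cox6b2 (−0.28) and Atp5g2 (−0.27). Ndufs7, a core iron-sulfur subunit of complex I, was at 147 CPM in control, 146 CPM in young and 113 CPM in old. Over all cells both libraries labelled 3 months were thus alike. From the lowest to the highest band, old over young was −0.35, −0.33, −0.13, −0.10 and −0.11. Control over young was −0.01, 0.01, 0.14, 0.17 and 0.12 in the same bands. In the highest band the intervals of both ratios included 0. From the middle band upward the libraries labelled 3 months therefore lay at least as far apart as old and young. Old over control was −0.34, −0.34, −0.27, −0.27 and −0.23 across the bands. Cox6b2, an isoform known from testis, made up 5.02% of the Cox6b UMIs in control, 6.66% in young and 5.59% in old.

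**Figure D5:**
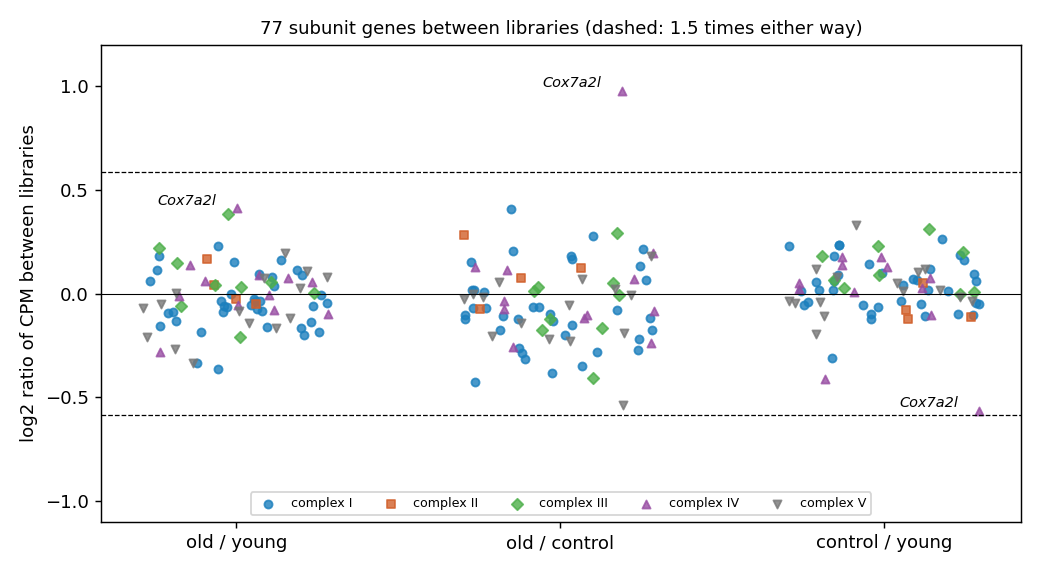
Log2 ratio of CPM (y axis) for the 77 subunit genes at 10 CPM or more in the comparisons of libraries (x axis), with 1 point per gene, a marker per complex and dashed lines at 1.5 times either way; the scatter along the x axis within a comparison has no meaning. Only Cox7a2l, at 0.98 in old over control, lies past a dashed line.

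By complex, the summed old over young ratio was −0.06 for complex I, 0.06 for II, 0.03 for III, 0.03 for IV and −0.06 for V. The old over control ratios were −0.10, 0.11, −0.11, −0.03 and −0.09, and the control over young ratios were 0.04, −0.06, 0.14, 0.05 and 0.03. For complex II, old was the highest library and control the lowest.

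The tissue-restricted isoforms were near the limit of detection, and their ratios are not read as differences in the neutrophil precursors. Cox6a2, the striated muscle form of subunit 6a, had 343 UMIs in the young cells used (5.0 CPM), 43 in control (0.45 CPM) and 12 in old (0.10 CPM). Before cells with markers of other lineages were set aside, young held 626 UMIs of Cox6a2. Of these, 75.1% lay in the 93 cells that carried Siglech, a marker of plasmacytoid dendritic cells, which made up 1.26% of the filtered young cells. In control 67.5% of 77 UMIs lay in 15 such cells, and in old no cell carried Siglech. Without Siglech-carrying cells the levels were 1.75, 0.26 and 0.10 CPM in young, control and old. Cox6a2 was lower in the highest Mpo band (log2 difference −2.63 ± 0.64, adjusted p = 0.0013, and not called with DESeq2, at −1.60). In young, 24 cells of the lowest band carried Siglech and held 137 of its 163 Cox6a2 UMIs, and in the highest band 5 such cells held 6 of 11. Cox6a2 stood at 7.85 CPM in the lowest and 1.73 CPM in the highest band of young, and at 1.26 and 0.79 CPM without these cells. In control the same bands held 9 and 1 UMIs of Cox6a2 (0.36 and 0.32 CPM), and in old 3 and 0. The call between bands therefore rests mostly on the counts of the young library. The part of these cells in the difference between bands was not tested. Cox7a1 was at 1.14, 1.17 and 1.89 CPM in control, young and old. No UMI of Ndufa4l2, the hypoxia-linked relative of Ndufa4, was counted in the cells used.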

How the data were processed

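Single-cell libraries were made by the submitters with the 10x Chromium 3′ v2 kit. The submitters' processing notes name STAR, Cell Ranger 2.1.0 and mm10. The deposited values are raw UMI counts per gene and cell. The subunit genes, the gene lists and the bands were chosen with earlier results of these data known.

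Cells with at least 200 genes, at most 20% mitochondrial UMIs and a UMI count between the 5th and 95th percentiles were kept (percentiles for control alone and for young and old jointly). No doublet caller was run. A cell was set aside when 3 or more genes of 1 of 7 lists of other blood lineages were detected and reached 10 per 10000 UMIs. Counts were summed per library and band and are given as CPM of these sums, with exact 95% Poisson, binomial or conditional binomial intervals, which cover counting error only.

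Bands were tested with edgeR 4.0.16 (R 4.3.3; quasi-likelihood, TMM, filterByExpr, library and band as terms, 15 sums, 8 residual degrees of freedom, Benjamini-Hochberg adjustment at 0.05). The 3 libraries are the replicates there, and they differ in age. The library term removes their differences in level, so p-values measure how far the band differences vary among these libraries. All 15 sums enter this spread, so the 8 degrees of freedom are more than the 3 libraries alone would give. The values after ± and the bars, called SE, were derived from the test. They are the size of the log2 difference divided by the square root of the F statistic. On simulated counts the test called 95 of 100 genes changed by log2 1, 35 of 100 changed by 0.5 and 4 of 10372 unchanged genes. Only 200 genes were changed there, as many upward as downward, and no shift of the granule transcripts was built in. These rates therefore do not carry over to the real bands, where most genes were called. Alternatives used DESeq2 1.42.0 and other scalings, bands and filters.

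Genes named with values were every member of an isoform family, the catalytic subunits (1 of them is counted with the others but not reported here), the extremes of each complex between bands, and the 5 highest and 5 lowest old over young ratios. Sdhc, Ndufab1, Ndufs4, Ndufv3, Ndufb11, Cox5b, Atp5h, Atp5j and Atp5o, and the genes of the other lists given by name, were picked after their values were seen. In GENCODE M21, 12 subunit genes overlap another gene on the same strand and 5 have pseudogenes that carry their name, so their counts are less certain.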

Additional observations from a re-analysis of the deposited data

How the results depend on the processing

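Between the highest and the lowest Mpo band, the alternatives other than library totals gave 27 to 38 subunit genes higher and 15 to 21 lower. Leaving out 1 library each time gave 29 to 35 higher and 15 to 18 lower, and 12 of the 55 called genes missed the threshold without at least 1 of the libraries. With library totals in place of TMM, 76 were higher and 1 was lower, and 32 genes turned from below to above 0. Among the genes named by rule these were Atp5c1 (0.70), Atp5f1 (0.23), Cox4i1 (0.43), Cox6a1 (0.37), Cox6b1 (0.72), Cox7a2 (0.51), Ndufb7 (0.13), Ndufb9 (0.50), Sdhb (0.25) and Uqcrh (0.71). The median log2 ratio between these bands was 0.76 in control, 0.87 in young and 0.90 in old, beside 0.70, 0.71 and 0.76 for all genes. Per cell it was 1.02, 1.15 and 1.03, and against a total without granule genes 0.062, 0.15 and 0.28. It was 0.74 in young with other blood cells kept and 0.81 in old as a mean of per-cell values, where all genes stood at 0.80.

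The median old over young ratio of the subunits (−0.03) turned to 0.24 per cell, 0.086 with the 5 bands weighted equally and 0.012 without trimming, and was −0.074 without granule genes. All genes stood at 0.18, 8.1e-05, −0.060 and −0.13 in these settings. Old over control (−0.07) turned to 0.26 per cell and 0.014 with equal bands, and was −0.11 without granule genes, where all genes stood at 0.26, −0.031 and −0.11. Control over young (0.02) turned to −0.036 per cell and −0.016 with other blood cells kept, and was 0.063 without trimming. Here all genes stood at −0.075, −0.060 and 0.0029. Per cell, the genes past 1.5 times upward were 2 for old over young (Cox7a2l and Uqcrfs1) and 5 for old over control (these with Ndufv1, Ndufv3 and Sdhb), beside 12.0% and 18.1% of all genes, and 1 gene, Cox7a2l, was past it downward for control over young, as it was with per-cell means (1) and other blood cells kept (1). At a lower limit, a ratio of 5 to 4, there were 2 up and 3 down for old over young (all genes 11.6% and 26.1%), 2 up and 5 down for old over control (13.9% and 24.0%), and 1 up and 2 down for control over young (8.36% and 12.3%). Cox7a2l was past 1.5 times for old over control in all alternatives run. The cause of the changes was not tested.

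The summed share in control, young and old was 3.95%, 3.81% and 3.64% without granule genes in the total, 2.50%, 2.37% and 2.38% without trimming, and 2.46%, 2.43% and 2.33% with other blood cells kept. The Atp5g1 share was 50.9% in control and 45.0% in old without trimming, and 42.2% in young with other blood cells kept. The log2 ratio of Retnlg-high over other cells of the lowest band was −0.14, −0.14 and −0.18 without granule genes and −0.93, −0.74 and −0.72 per cell, and −0.20 in young without trimming.

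With 1 library per group, a difference between libraries has no replicate check. The bands were compared within each library, but libraries could not be paired with each other, since each group had only 1. Genes under 10 CPM and complex I assembly factors rest on few UMIs per band, least in the 93 old cells of the highest band.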
